A study of Mus musculus with 14 samples.

Results

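The integrated stress response and amino acid synthesis were followed in mouse blood through 10 genes: Atf4, Ddit3, Asns, Psat1, Phgdh, Trib3, Chac1, Sesn2, Hspa5 and Xbp1. They were found by symbol among the genes on the arrays, of which 11497 named genes could be tested. The 10 genes carry 13 probes, and 9 of the genes have a probe bright enough to test. They were chosen with the difference between SS and SI mice already known, so that difference is given for them as a description without a test.

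RNA was measured on 14 one-colour Agilent arrays, each labelled with its own mouse number, and the study counts 8 SS and 6 SI mice. One SS labelled male is numbered 01b beside a mouse 1, and the labels do not say how they relate. Their arrays correlated at 0.977, against 0.927 to 0.983 for the other pairs of that group. SS mice met an adverse social setting as pups in the third week of life, and SI mice were socially isolated at that age. All 14 mice then went through place conditioning with cocaine at 5 mg/kg, a dose below threshold, followed by extinction and withdrawal, and were bled 24 hours later. The groups were 4 SS labelled male mice, 4 SI labelled male mice, 4 SS labelled female mice and 2 SI labelled female mice, and no group lacked stress or cocaine. No strain is named in the labels. The labels call the cells PBMC, but the preparation named is red cell lysis of whole blood, and platelet, neutrophil and hemoglobin transcripts were well above background on all 14 arrays.

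When cells lack amino acids, heme or folding capacity in the endoplasmic reticulum, kinases phosphorylate the initiation factor eIF2, general translation slows, and the mRNA of the transcription factor ATF4 is translated more. ATF4 then switches on genes for amino acid synthesis, transport and tRNA charging, and, with its partner CHOP, feedback genes such as Trib3 and Chac1. The unfolded protein response of the endoplasmic reticulum shares the kinase PERK with this pathway and adds its own factor, XBP1, and chaperones such as BiP, the product of Hspa5. ATF4 is controlled largely in translation, and the arrays measure mRNA only.

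Promoter sequence was read for all 10 genes from RefSeq (build GRCm38.p6), as windows of 250 bases before to 50 bases after each annotated start, with 2 windows for Psat1. The core of the element that ATF4 and its partners bind, TGATGNAA on either strand, was found in 3 of the 10 genes, against 3.97% of 32851 windows of the same length. It lay at -23 to -16 in Asns, at -193 to -186 in Chac1 on the opposite strand, and at 15 to 22 in Trib3 on the opposite strand, where the start is 1. The element of the unfolded protein response, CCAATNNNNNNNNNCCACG on either strand, was found in Hspa5 alone of the 10, at -65 to -47, and in 0.119% of all windows. The 2 motifs did not overlap in any of the 10 genes. The 4 upstream runs are shown because they set Atf4, which held neither motif, beside 3 genes that held one. Capitals mark the motif, and each run ends at the base before the start:
Atf4 (chr15:80254934-80255183, plus strand): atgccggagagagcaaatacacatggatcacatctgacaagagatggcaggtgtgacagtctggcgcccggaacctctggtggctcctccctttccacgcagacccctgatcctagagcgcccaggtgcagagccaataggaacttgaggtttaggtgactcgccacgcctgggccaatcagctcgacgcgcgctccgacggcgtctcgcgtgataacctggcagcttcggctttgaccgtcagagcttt
Asns (chr6:7693210-7693459, minus strand): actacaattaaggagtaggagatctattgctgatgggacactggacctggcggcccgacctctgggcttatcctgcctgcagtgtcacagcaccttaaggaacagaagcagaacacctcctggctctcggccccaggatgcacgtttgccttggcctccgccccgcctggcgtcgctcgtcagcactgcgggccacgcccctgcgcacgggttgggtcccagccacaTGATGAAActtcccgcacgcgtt
Chac1 (chr2:119350992-119351241, plus strand): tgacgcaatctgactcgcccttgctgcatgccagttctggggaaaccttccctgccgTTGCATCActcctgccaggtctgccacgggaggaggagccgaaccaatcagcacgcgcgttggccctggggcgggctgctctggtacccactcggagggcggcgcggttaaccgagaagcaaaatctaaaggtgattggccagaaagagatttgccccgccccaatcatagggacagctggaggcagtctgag
Hspa5 (chr2:34771970-34772089, plus strand): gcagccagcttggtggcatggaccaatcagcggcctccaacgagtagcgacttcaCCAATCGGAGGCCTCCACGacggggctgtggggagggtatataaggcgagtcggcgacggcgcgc
A match is a run of letters and does not show binding in these cells.

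Each level is log2 processed signal minus the 75th percentile of its array over the 14522 probes well above background on all arrays, so 0 is a probe at that percentile. Each sex label filled a slide of its own, and its effect cannot be told apart from that of the slide. SS and SI arrays also lay in different columns of both slides, so column and stress group cannot be told apart either. The Y-linked genes Eif2s3y and Ddx3y were well above background on 6 of 6 labelled female arrays and 0 of 8 labelled male arrays, which is opposite to the labels. Between 34.8% and 47.7% of spots were well above background. The array of SI labelled male mouse 4 was the dimmest, at -1.06 (log2) against the mean array, and its correlation with mouse 7 of its group was 0.833. The difference of each tested gene in labelled males is also given without it. Over all genes tested, 990 were higher (8.61%) and 110 lower (0.957%) in SS mice at an adjusted p under 0.05 (limma with slide as a term, Benjamini-Hochberg), and the median difference was -0.14.

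Asns, which makes asparagine from aspartate and glutamine, was the 1 gene of the 10 with every SS array below every SI array on both slides. Its level was -3.28, -3.35, -3.17 and -3.04 in SS labelled males, against -2.37, -2.83, -2.58 and -2.44 in SI labelled males. It was -3.57, -3.59, -3.34 and -3.32 in SS labelled females, against -2.06 and -1.98 in SI labelled females. The gap between the groups was wider on the slide of the labelled females, where the SI arrays were the highest of all 14 and the SS arrays included the 2 lowest. SS minus SI was -0.97 ± 0.17 (SE of the fit, 8 SS and 6 SI mice), a signal 48.8% lower in SS mice. On the slide of the labelled males it was -0.65 ± 0.17, or -0.75 ± 0.16 without SI labelled male mouse 4. On the other slide it was -1.43 ± 0.21. Such complete separation downward on both slides was seen in 91 of all genes tested (0.792%), and nothing is read from that share because Asns was chosen on this contrast. With normexp background correction SS minus SI was -0.59. In blood, fewer cells of a type and less RNA per cell cannot be told apart.

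**Figure D1:**
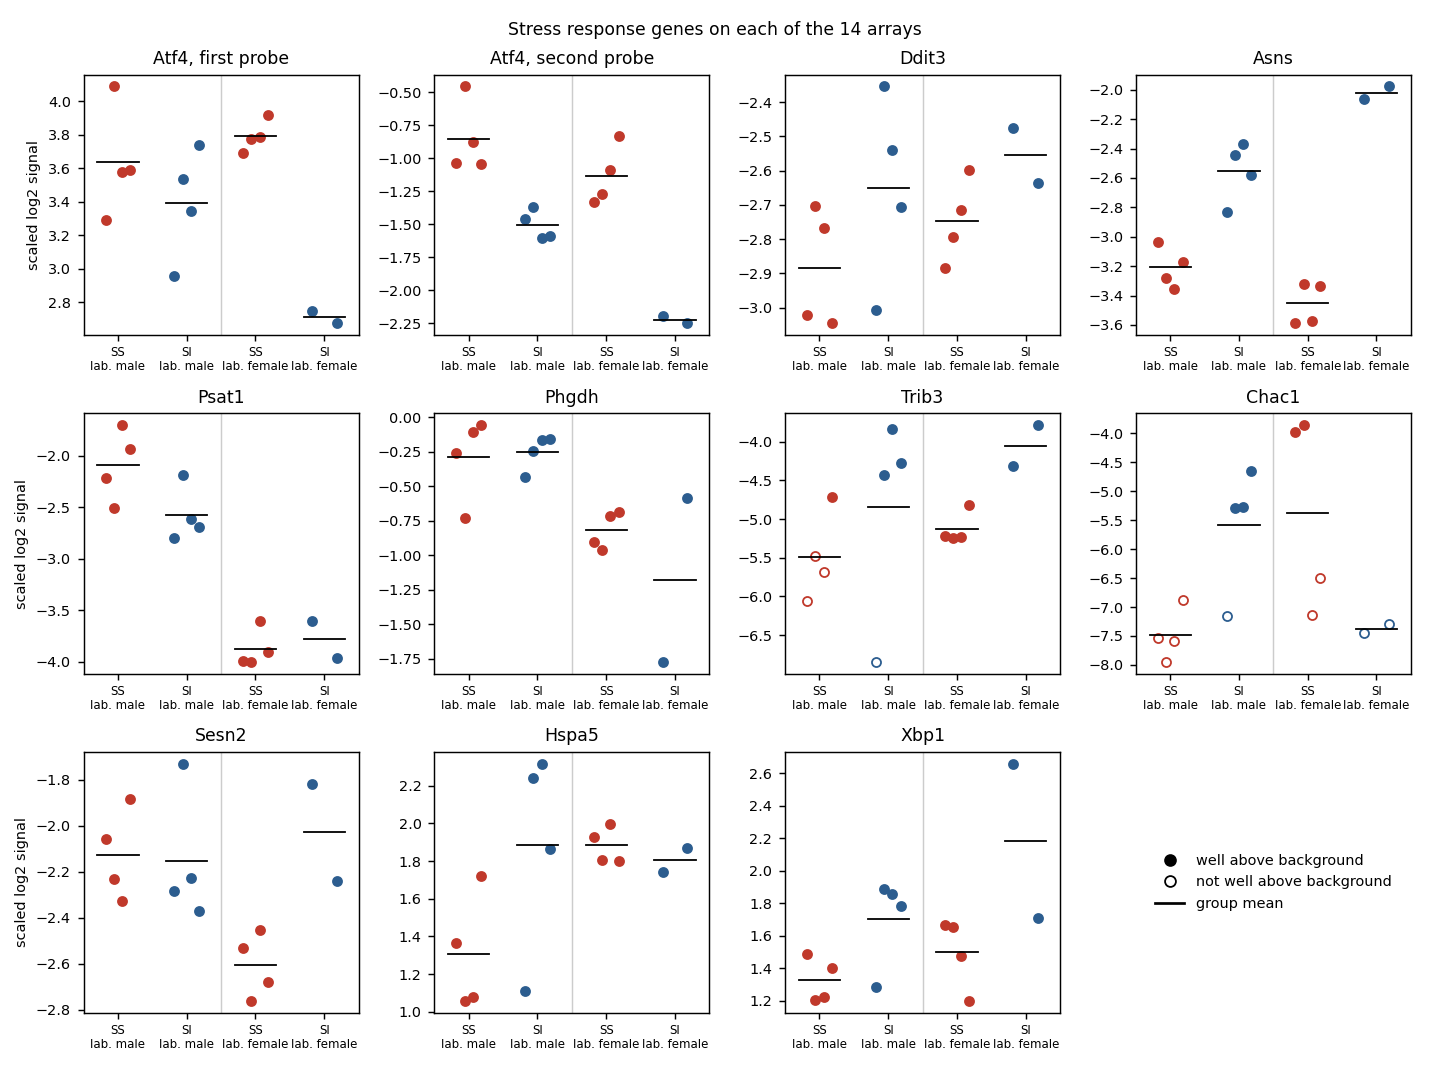
Level of each gene on each of the 14 arrays (log2 processed signal after scaling, y axis), with labelled abbreviated to lab. on the x axis. Filled points are well above background, open points are not, and bars are group means. Asns lies lower in every SS array than in every SI array of the same slide, and both Atf4 probes lie higher in every SS labelled female than in either SI labelled female.

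Atf4 went the other way. It has 2 probes, named here first and second by signal, the first standing for the gene. The first probe read 4.09, 3.58, 3.59 and 3.29 in SS labelled males, against 3.34, 2.96, 3.74 and 3.53 in SI labelled males, and these ranges overlap. It read 3.79, 3.69, 3.92 and 3.78 in SS labelled females, against 2.75 and 2.68 in SI labelled females, with no overlap. For this probe SS minus SI was 0.58 ± 0.20 (SE) over both slides, 0.24 ± 0.22 for labelled males and 1.08 ± 0.27 for labelled females. The value for labelled males was 0.10 ± 0.20 without SI labelled male mouse 4.

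The second Atf4 probe separated the groups on both slides. It read -0.45, -0.87, -1.04 and -1.04 in SS labelled males, against -1.60, -1.46, -1.59 and -1.37 in SI labelled males. It read -1.09, -1.33, -0.83 and -1.27 in SS labelled females, against -2.20 and -2.25 in SI labelled females. Every SS array was therefore above every SI array of its slide, which was also so for 725 of all genes tested (6.31%). The difference was 0.83 ± 0.15 (SE) over both slides, 0.65 ± 0.19 for labelled males and 1.09 ± 0.23 for labelled females. Without SI labelled male mouse 4 it was 0.67 ± 0.19 for labelled males. The probes thus gave close values in labelled females and different ones in labelled males.

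Asns and Atf4 were then set against each other array by array, each after subtraction of its mean over the 14 arrays. With the first probe, Asns minus Atf4 was -0.96, -0.53, -0.36 and 0.08 in SS labelled males, against 0.69, 0.61, 0.09 and 0.42 in SI labelled males. In SS labelled females it was -0.96, -0.88, -0.85 and -0.70, against 1.59 and 1.75 in SI labelled females. No SS array reached an SI array of its slide, although SS labelled male mouse 01b at 0.08 and SI labelled male mouse 7 at 0.09 nearly met. Group means were -0.44 ± 0.43 in SS labelled males (SD, n = 4) and 0.45 ± 0.27 in SI labelled males (n = 4). They were -0.85 ± 0.11 in SS labelled females (n = 4) and 1.67 ± 0.11 in SI labelled females (n = 2). The SS minus SI difference of this quantity was -1.54 over both slides with the first probe and -1.80 with the second. For labelled males it was -0.90 with the first probe and -1.31 with the second. For labelled females it was -2.52 with the first and -2.53 with the second.

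**Figure D2:**
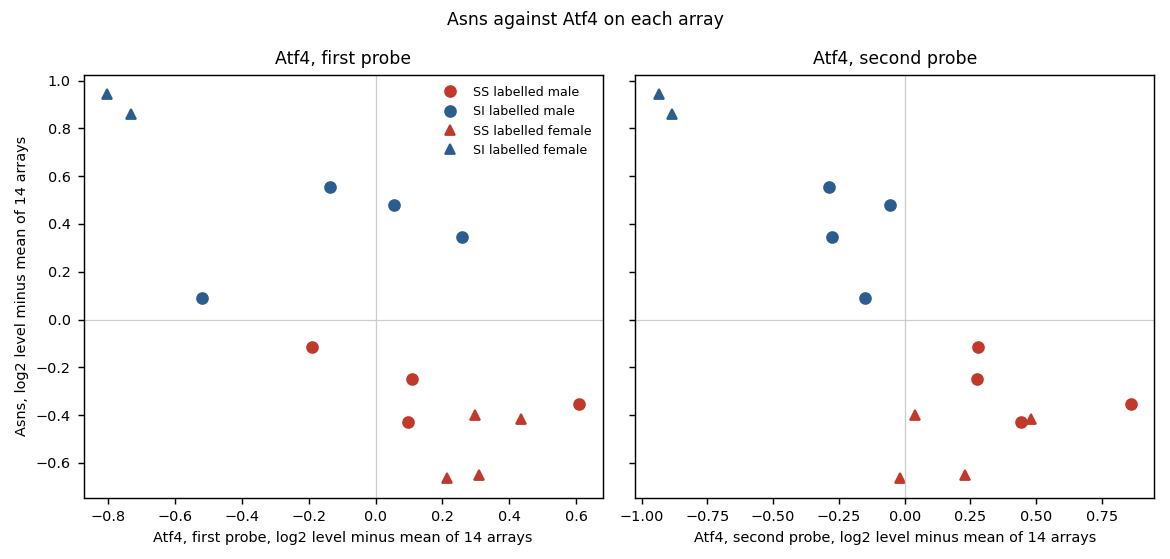
Asns (y axis) against Atf4 (x axis) on each array, both as log2 level minus the mean over 14 arrays, with the first Atf4 probe on the left and the second on the right. Circles are labelled males, triangles labelled females, red SS and blue SI. All 8 SS arrays have Asns below its mean and all 6 SI arrays above it, and the 2 SI labelled female arrays combine the highest Asns with the lowest Atf4.

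With the 4 group means removed, what remains is variation between arrays of the same group, which the choice of genes did not use. It holds differences between mice and between arrays, and these cannot be told apart with 1 array per mouse. Atf4 and Asns showed little common variation there, with Pearson r = 0.14 (exact permutation p = 0.725) and Spearman rho = 0.14 (exact permutation p = 0.698) over 14 arrays, and r = -0.15 without the 2 arrays farthest from the median Atf4. The median r of Atf4 with all other genes tested was 0.21, and that of Asns was 0.26. Atf4 with Ddit3 had r = 0.67 (exact permutation p = 0.0651) and rho = 0.66 (exact permutation p = 0.0441), and r = 0.41 without 2 arrays. Asns with Hspa5 had r = 0.68 (exact permutation p = 0.0454) and rho = 0.50 (exact permutation p = 0.135), and r = 0.33 without 2 arrays. Of all genes, 7.34% had an r with Atf4 as large in size as that of Ddit3. For Asns, 4.35% had one as large in size as that of Hspa5. All tests were two-sided, and none of the 17 pairs of Atf4 or Asns with another of the 10 genes passed adjustment over the 17, the lowest adjusted p being 0.551 for r (exact permutation). With arrays scaled by the 75th percentile of all probes, Atf4 with Ddit3 had r = 0.89 and passed (exact permutation, adjusted p = 0.0043). The median r of Atf4 with all genes under that scaling is not given here, so this r cannot be set against it. By Pearson r with the group means removed, the genes most like Asns among 11496 were Rasa1 (r = 0.89), Luc7l3 (0.88), U2af2 (0.86), Ndufab1 (0.86) and Atxn2 (0.84). Among those most like Atf4 were Otulin (0.95), Stx4a (0.94), Uqcc1 (0.93) and Rabac1 (0.93). These are the top of a search and carry no test.

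Ddit3 encodes CHOP, the transcription factor that acts with ATF4 under lasting stress. It read -2.70, -2.77, -3.04 and -3.02 in SS labelled males, against -2.54, -3.01, -2.71 and -2.35 in SI labelled males. In SS labelled females it read -2.72, -2.88, -2.60 and -2.79, against -2.48 and -2.64 in SI labelled females. The groups overlap on both slides. The difference, SS minus SI, was -0.22 ± 0.14 (SE), near the median of all genes. For labelled males it was -0.23 ± 0.19, and -0.35 ± 0.17 without SI labelled male mouse 4.

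Psat1 and Phgdh encode enzymes of serine synthesis, PHGDH the first step from a glycolytic intermediate and PSAT1 the second. Psat1 read -2.51, -1.70, -1.93 and -2.22 in SS labelled males, against -2.61, -2.80, -2.69 and -2.18 in SI labelled males. In SS labelled females it read -3.61, -4.00, -3.91 and -4.00, against -3.60 and -3.96 in SI labelled females. The stress groups overlap on each slide, while the 6 labelled female arrays all lie below the 8 labelled male arrays. SS minus SI was 0.25 ± 0.18 (SE), made up of 0.48 ± 0.22 for labelled males and -0.09 ± 0.27 for labelled females. The labelled male value was 0.40 ± 0.22 without SI labelled male mouse 4. Over both slides SS minus SI ran from 0.16 to 0.37 with any 1 array left out. The slide difference, labelled females minus labelled males, was -1.56 ± 0.18, or 0.340-fold (limma adjusted p = 7.91e-06). This contrast played no part in choosing the genes. A second Psat1 probe was well above background on 5 of the 14 arrays, all of them labelled male, and was not tested.

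Phgdh read -0.73, -0.11, -0.06 and -0.26 in SS labelled males, against -0.17, -0.43, -0.16 and -0.24 in SI labelled males. It read -0.71, -0.90, -0.69 and -0.96 in SS labelled females, against -1.77 and -0.58 in SI labelled females, where the 2 mice differ by more than any other pair within a group for this probe. SS minus SI was 0.12 ± 0.19 (SE), and it ran from -0.09, without SI labelled female mouse 27, to 0.25, without SI labelled female mouse 28. For labelled males it was -0.04 ± 0.25, and -0.10 ± 0.26 without SI labelled male mouse 4. The slide difference was -0.69 ± 0.19 (limma adjusted p = 0.0122). Its adjusted p was 0.323 when arrays were scaled by the 75th percentile of all probes. A second Phgdh probe gave -0.51 ± 0.19 (limma adjusted p = 0.0517). Psat1 and Phgdh were the 2 of 9 tested genes that passed between slides, both lower with labelled females, against 17.8% lower and 11.4% higher of all genes tested. The split over all genes depends on the scaling: it was 11.9% lower and 30.5% higher with the 75th percentile of all probes and 13.1% lower and 21.2% higher with quantile normalization, and Psat1 passed as lower under both (limma adjusted p = 0.000378 and 8.47e-05). The second Atf4 probe was also lower there, at -0.45 ± 0.15 (limma adjusted p = 0.0313, passing in 12 of 22 alternative analyses), while the first, which stands for the gene, gave -0.18 ± 0.20 (limma adjusted p = 0.508).

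Trib3 encodes a pseudokinase that ATF4 and CHOP induce and that restrains them. It was well above background on 10 of 14 arrays, 1 of 4 in SS labelled males, 3 of 4 in SI labelled males, 4 of 4 in SS labelled females and 2 of 2 in SI labelled females. Its level was -5.48, -5.69, -4.71 and -6.06 in SS labelled males, against -3.84, -6.85, -4.27 and -4.43 in SI labelled males. It was -5.23, -5.22, -4.82 and -5.25 in SS labelled females, against -4.31 and -3.79 in SI labelled females, without overlap. The lowest of all was SI labelled male mouse 4, which was not well above background. Over both slides SS minus SI was -0.81 ± 0.40 (SE), and -1.21 ± 0.22 without mouse 4. In labelled males it was -0.64 ± 0.53 with mouse 4 and -1.30 ± 0.29 without it.

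Chac1 encodes an enzyme that degrades glutathione and is induced by ATF4 and CHOP. It was well above background on 5 of 14 arrays and could not be tested. None of 4 SS labelled male arrays detected it, against 3 of 4 SI labelled male arrays, which read -5.27, -4.65 and -5.30 with mouse 4 the exception. The order was opposite on the other slide, where 2 of 4 SS labelled female arrays (mice 20 and 21, at -3.98 and -3.86) detected it, against 0 of 2 SI labelled female arrays. Each SS labelled male value was raised, where lower, to the lowest level of any probe well above background on its array. Against these the SI labelled male mean was 1.88-fold higher. Treated alike, SI labelled females were exceeded 2.93-fold by the SS labelled female mean. Neither value is a lower bound, because brighter probes could also miss the background mark. Trib3 did so at -5.48 in SS labelled male mouse 1, and the second Psat1 probe at -6.34 in SI labelled female mouse 27. Whether the slides differ in Chac1 was not tested, and 2 of the 4 SS labelled females were themselves not well above background for it.

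Sesn2 encodes a leucine sensor that ATF4 induces and that restrains mTORC1, the complex that promotes growth. It read -2.23, -2.33, -1.88 and -2.06 in SS labelled males, against -2.23, -2.28, -2.37 and -1.73 in SI labelled males. In SS labelled females it read -2.45, -2.53, -2.68 and -2.76, against -1.82 and -2.24 in SI labelled females. The groups overlap in labelled males and not in labelled females. The difference, SS minus SI, was 0.03 ± 0.20 (SE) for labelled males, -0.02 ± 0.20 without SI labelled male mouse 4, and -0.58 ± 0.24 for labelled females.

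Hspa5, the chaperone BiP, read 1.06, 1.08, 1.72 and 1.37 in SS labelled males, against 2.31, 1.11, 1.86 and 2.24 in SI labelled males. It read 2.00, 1.93, 1.80 and 1.81 in SS labelled females, against 1.74 and 1.87 in SI labelled females. Leaving aside SI labelled male mouse 4, every SS labelled male array was below every SI labelled male array, and labelled females overlapped. For labelled males SS minus SI was -0.58 ± 0.26 (SE) with mouse 4 and -0.83 ± 0.20 without it, and in labelled females it was 0.08 ± 0.32.

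Xbp1, whose mRNA is spliced by the sensor IRE1 to yield the active factor, read 1.21, 1.22, 1.40 and 1.49 in SS labelled males, against 1.86, 1.28, 1.78 and 1.89 in SI labelled males. It read 1.48, 1.67, 1.20 and 1.65 in SS labelled females, against 2.66 and 1.71 in SI labelled females. Mouse 4 was again the SI labelled male that fell among the SS values, and labelled females did not overlap, by a margin of 1.71 against 1.67. SS minus SI was -0.50 ± 0.18 (SE), made up of -0.37 ± 0.23 for labelled males and -0.69 ± 0.29 for labelled females. Without mouse 4 the labelled male value was -0.51 ± 0.22. Splicing was not measured.

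Counted over the genes, labelled females showed Atf4 higher without overlap and Asns, Trib3, Sesn2 and Xbp1 lower without overlap. With 2 SI arrays such separation is frequent, at 19% of all genes upward and 19.6% downward. In labelled males Asns alone of the tested genes was separated by the probe that stands for it, against 1.78% of all genes downward and 8.56% upward. Without SI labelled male mouse 4, Asns, Trib3, Hspa5 and Xbp1 were separated downward there, 4 of the 9, against 24.9% of all genes downward and 17.1% upward. For Trib3 only 1 of the 4 SS labelled male arrays was well above background.

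**Figure D3:**
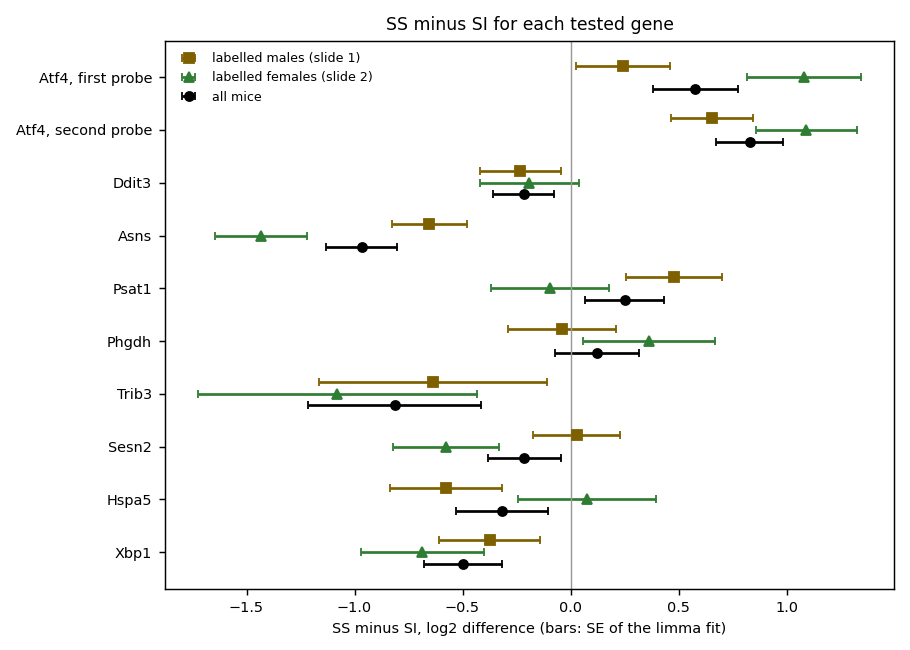
SS minus SI (log2 difference, x axis) for each tested gene, in labelled males, labelled females and all mice, with bars for the SE of the limma fit. Asns lies below 0 and the second Atf4 probe above 0 on both slides, while the values of Hspa5, Psat1, Phgdh and Sesn2 fall on opposite sides of 0 on the slides.

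The rest of these pathways was read from 7 lists that leave out the 10 genes and hold 132 tested genes, each counted once. In SS mice 6 rose and 2 fell (limma adjusted p under 0.05 over all probes), which is 1 higher and 0 lower of 23 ATF4 target genes, 0 of 13 amino acid transporters, 1 higher and 0 lower of 16 enzymes of amino acid synthesis and one-carbon metabolism, and 0 higher and 1 lower of 16 cytosolic tRNA synthetases. It is also 1 higher and 0 lower of 20 eIF2 kinases, factors and phosphatase subunits, 2 higher and 0 lower of 30 genes of the unfolded protein response, and 1 higher and 1 lower of 17 genes of sestrin and amino acid sensing. The background is 8.61% higher and 0.957% lower of all genes. The median difference over the 132 genes was -0.24, against -0.14 over all genes. Medians by list were -0.09 for ATF4 targets, -0.24 for transporters, 0.00 for synthesis enzymes, -0.31 for tRNA synthetases, -0.29 for the eIF2 list, -0.26 for the unfolded protein response and -0.14 for amino acid sensing.

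The largest rise in these lists was Mthfd2l, a mitochondrial folate enzyme of one-carbon metabolism (1.74 ± 0.28, SE, a 3.35-fold difference, limma adjusted p = 0.00474). Derl1, a membrane protein through which misfolded proteins leave the endoplasmic reticulum, rose by 1.41 ± 0.24 (limma adjusted p = 0.00474). The rise of its relative Derl3, also a plasma cell marker, depends on the background correction. The Derl3 difference was 1.70 ± 0.39 (limma adjusted p = 0.0125), but 0.27 with normexp background correction (limma adjusted p = 0.682). Derl3 was well above background on 7 of 8 SS arrays and 2 of 6 SI arrays, so it entered the test through the SS arrays, and most SI values lie under the detectable level. Ndrg1, a stress-responsive gene of the ATF4 target list, rose by 1.16 ± 0.24 (limma adjusted p = 0.00678). Nprl3, a subunit of the GATOR1 complex that restrains mTORC1, rose by 0.75 ± 0.18 (limma adjusted p = 0.0198), and Mtor, the kinase of mTORC1, fell by 0.72 ± 0.20 (0.0373). Eif2ak1, the heme-regulated eIF2 kinase HRI, rose by 0.50 ± 0.14 (limma adjusted p = 0.0430). Nars, which charges tRNA with asparagine, fell by 0.58 ± 0.15 (limma adjusted p = 0.0225). Mtor was dim, above background on 2 of 8 SS arrays and 4 of 6 SI arrays. That just meets the minimum of 6 arrays for a test, so Mtor entered it mainly through the SI arrays. Mtor passed in 7 of 21 alternative analyses, while Eif2ak1 passed in 4 of 22. Ndrg1, Mthfd2l and Derl1 passed in every alternative in which they could be fitted, with smaller differences in some: 0.59 for Ndrg1 and 0.72 for Derl1 in the deposited log2 table, and 0.82 for Mthfd2l with normexp.

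Within labelled females alone, 5 of the 132 genes were higher and 0 lower in SS mice: 3 synthesis enzymes, 2 of the unfolded protein response list (Derl1 and Derl3) and 0 of the other 5 lists. The 3 of the 16 enzymes of amino acid synthesis and one-carbon metabolism (background 3.93% of all genes higher) were Mthfd2l (2.24 ± 0.42, SE, limma adjusted p = 0.0217), Glul, which makes glutamine from glutamate and ammonia (1.03 ± 0.25, limma adjusted p = 0.0394), and Aldh18a1, of proline and ornithine synthesis (0.99 ± 0.25, limma adjusted p = 0.0465). All 3 were named after their values were seen. They rest on 2 SI mice: leaving out any 1 of the 6 labelled female arrays left between 43 and 194 probes passing in that comparison, against 962 with all of them. Aldh18a1 and Derl3 were each above background on all 4 SS labelled female arrays and 0 of 2 SI labelled female arrays. Mthfd2l was above background on all 4 SS labelled female arrays and 1 of 2 SI labelled female arrays. For labelled males the differences were 1.41 for Mthfd2l, 0.29 for Glul and 0.21 for Aldh18a1, and the difference between slides passed for none of the 3 (limma adjusted p = 0.539, 0.371 and 0.355).

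**Figure D4:**
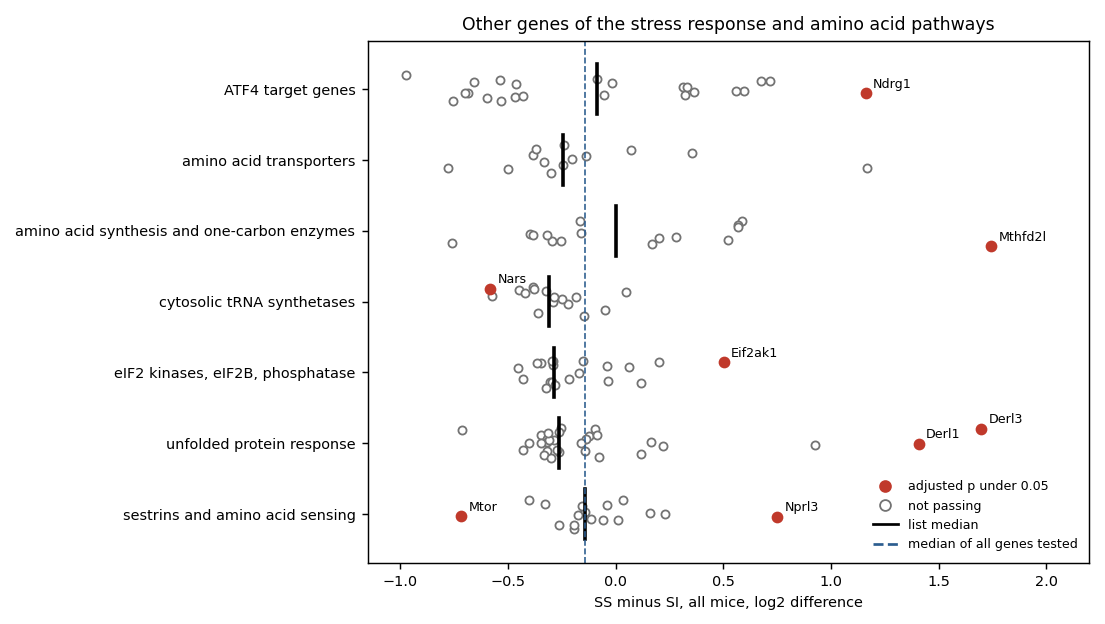
SS minus SI in all mice (log2 difference, x axis) for the tested genes of 7 lists, with genes at an adjusted p under 0.05 in red and named, list medians as black bars and the median of all genes as a dashed line. Genes are spread vertically within a list for legibility only. Most genes lie left of 0, and 6 of the 8 passing genes lie to the right.

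Leaving out SI labelled male mouse 4 changed the lists. Without it 7 of the 132 genes rose and 15 fell, against 10.8% higher and 9.99% lower of all genes. Cytosolic tRNA synthetases then had 5 of 16 lower (Gars, Lars, Nars, Sars and Wars, by between -0.73 and -0.53) and ATF4 targets 4 of 23 lower (Trib1 at -1.35, Nfil3 at -0.97, Jdp2 at -0.91 and Cebpb at -0.83). Those genes are named after their values were seen. The amino acid transporters still had 0 of 13.

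Between slides, the unfolded protein response list had 8 of 30 genes higher and 2 lower with labelled females (limma, 11.4% and 17.8% of all genes), while ATF4 targets had 0 higher and 7 lower of 23. These directions depend on the scaling. With the 75th percentile of all probes the unfolded protein response list had 18 higher and 0 lower and ATF4 targets 5 higher and 2 lower (30.5% higher and 11.9% lower of all genes). With quantile normalization the counts were 10 higher and 1 lower, and 2 higher and 5 lower (21.2% higher and 13.1% lower). Sdf2l1, a chaperone cofactor of the endoplasmic reticulum, differed most among the 8 (1.01, limma adjusted p = 0.000331). The difference between slides of SS minus SI passed in 0 of the 132 genes, against 0.0609% of all genes.

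Cell type markers moved with the stress groups as well. All 14 platelet markers were higher in SS mice (median 1.58, all 14 well above background on every array), and their summed linear level ran from 437.4 to 771.6 in SS labelled males, against 109.3 to 436.9 in SI labelled males. It ran from 478.0 to 591.6 in SS labelled females, against 136.7 to 175.4 in SI labelled females. Of 12 tested neutrophil markers 0 passed in all mice (median -0.84), and 7 were lower in labelled females, where the summed level was 154.5 to 192.2 in SS mice and 487.2 to 737.0 in SI mice. In labelled males it was 256.7 to 287.5 in SS mice and 167.7 to 258.7 in SI mice. The calls in labelled females rest on 2 SI mice, and 196 of 24033 probes were lower in that comparison. Of 6 tested plasma cell markers 1 was higher, Derl3 itself, and Fkbp11 was above background on 0 of 14 arrays. The summed plasma cell level was 2.58 to 3.85 in SS labelled males and 1.59 to 3.64 in SI labelled males, and 3.17 to 3.40 in SS labelled females and 1.49 to 2.59 in SI labelled females. Of 6 tested erythroid markers Epor alone was higher, and the summed erythroid level was 645.4 to 1608 in SS labelled males and 481.2 to 2535 in SI labelled males, and 487.5 to 1006 in SS labelled females and 1168 to 1963 in SI labelled females. Of 7 tested NK cell markers 0 passed (median -0.70), and their summed level was 1.61 to 7.71 in SS labelled males and 1.40 to 9.77 in SI labelled males. It was 3.41 to 7.51 in SS labelled females and 16.2 to 17.5 in SI labelled females, without overlap. Klrk1 was well above background on 0 of 14 arrays. None of 8 B cell markers passed (median 0.03), with sums of 10.8 to 25.7 in SS labelled males and 12.3 to 29.4 in SI labelled males, and 27.3 to 36.2 in SS labelled females and 13.5 to 26.7 in SI labelled females. None of 7 T cell markers passed (median -0.47), with sums of 2.15 to 4.96 in SS labelled males and 2.57 to 8.16 in SI labelled males, and 4.75 to 8.55 in SS labelled females and 5.89 to 12.2 in SI labelled females. Of 7 monocyte markers F13a1 alone was higher (median -0.27), with sums of 27.0 to 43.1 in SS labelled males and 24.5 to 31.6 in SI labelled males, and 27.9 to 34.1 in SS labelled females and 22.7 to 51.5 in SI labelled females. Of the SI labelled males, mouse 4, left out in some results above, had the highest platelet (436.9) and erythroid (2535) sums. It also had the lowest neutrophil (167.7), B cell (12.3), NK cell (1.40) and plasma cell (1.59) sums. Its T cell (3.19) and monocyte (28.9) sums lay among those of the other SI labelled males. The part of these cells in the differences above was not tested.

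The study's own value table gives the second Atf4 probe a much larger difference than the scanner signals do. In that deposited table it read 12.6 to 13.1 in SS labelled males, against 9.80 to 11.1 in SI labelled males, and 9.83 to 11.7 in SS labelled females, against 8.52 to 8.79 in SI labelled females. The SS minus SI difference was 2.35 there and 0.83 from the scanner. Within each array the deposited values follow the scanner signal in order (Spearman between 0.993 and 1.000), but not evenly: 3.46% to 4.13% of values lie from 10 to 12, against 17.1% to 19.6% from 8 to 10. In that sparse range a step of 1 in scanner signal becomes a larger step. The local slope at the second Atf4 probe had a median of 2.24 and reached 5.43, against a median of 0.92 at Asns and 0.56 at the first Atf4 probe. In that table SS minus SI was -0.80 for Asns and 0.28 for the first Atf4 probe.

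**Figure D5:**
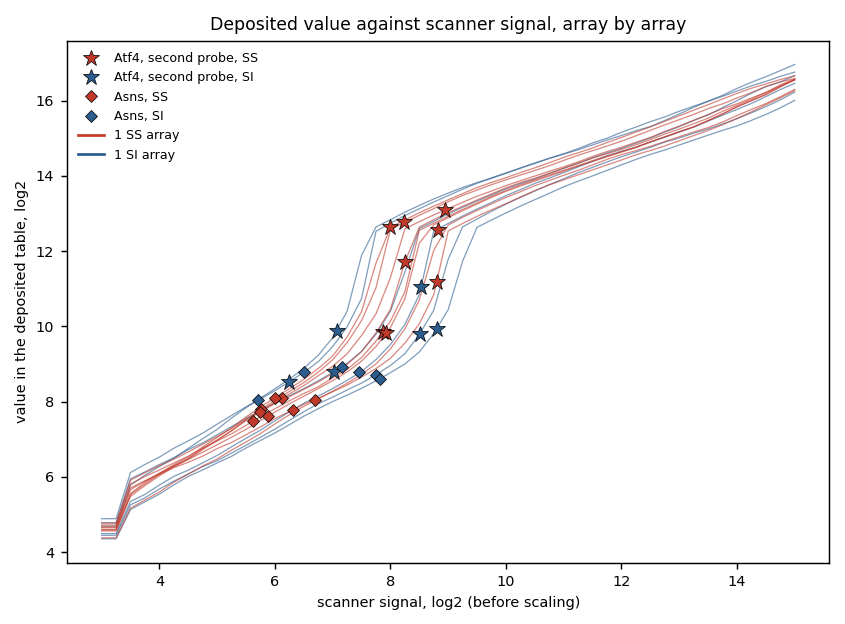
Value in the deposited log2 table (y axis) against unscaled log2 scanner signal (x axis), 1 line per array as the median in bins, red for SS and blue for SI. Stars are the second Atf4 probe and diamonds Asns on each array. The stars run from below to above the steep stretch between 10 and 12, with few of them inside it, and the diamonds lie on the flatter stretch below 9.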

How the data were processed

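Genes were matched by symbol to probes through the RefSeq table given with the data (26425 of 31063 RefSeq-type identifiers matched). The deposited scanner files hold fluorescence intensity with background already subtracted, per the file headers by Agilent Feature Extraction 10.7.3.1 and per the submitters' processing notes by version 9.1. The authors also deposited a log2 table, made by a normalization that no source used here names. The array design refers to an earlier build than the promoters, so no probe positions are given. Of 62976 spots per array 3671 control spots were left out, as were 113 to 174 outlier spots; no spot was saturated. Spots of a probe were averaged as log2, each array was scaled by its 75th percentile, and the 24033 probes well above background on at least 6 arrays were tested with limma 3.58.1 in R 4.3.3 (data.table, version 1.17.8), two-sided, with Benjamini-Hochberg adjustment at 0.05. A gene takes its tested probe of highest mean. The labels give each array its own mouse number, so p-values are read as measuring spread between mice; the number of arrays limits the precision.

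The 10 genes, the 7 pathway lists and the marker lists were chosen with earlier results of these data known. Named genes are the 10, the 3 largest rises and falls among passing genes of each list, and the 5 genes most correlated with Asns and with Atf4, of which 1 is not reported here. On simulated data with 200 of 24033 probes changed, a log2 change of 1 and one of 2 were recovered for 46% and 86% of probes over all mice, with 9 of 141 calls false. The shares were 22% and 70% for labelled males (10 of 102 calls false) and 6% and 54% for labelled females (2 of 62 calls false). The simulated noise was independent between probes and held no outlying array, so these shares need not hold for the real arrays.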

Additional observations from a re-analysis of the deposited data

Results flagged for a closer look

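Trib3 in SS labelled female mouse 23 was at -4.82, apart from the other 3 SS labelled females, of which the nearest was at -5.22; the gap was 0.923 of the group's whole range. It was 1 of 36 groups of 4 arrays examined in this way, and chance gives about 1 in 20 such groups.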

How the results depend on the processing

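The analysis was repeated under 8 other settings and with each array left out, and no single gene's called difference changed sign. Counts below are of probes for whole comparisons (1918 passing in all mice, 0 in labelled males, where 5706 had an unadjusted p under 0.05, 962 in labelled females, 11 for the difference between slides of SS minus SI and 9145 between slides) and of genes for lists. Scaling by the 75th percentile of all probes gave 2 in labelled males, 0 tRNA synthetases, 0 in the eIF2 list, 0 in amino acid sensing, and r = 0.89 for Atf4 with Ddit3 (exact permutation, adjusted p = 0.0043). Scaling by the median gave 1 in labelled males and 3 synthesis enzymes. Quantile normalization gave 2 in labelled males, 17 for the difference between slides, 2 ATF4 targets, 2 synthesis enzymes, 0 in the eIF2 list and 1 in amino acid sensing. Normexp gave 1245 in all mice, 414 in labelled females, 3624 between slides, 2 ATF4 targets, 0 tRNA synthetases, 0 in the eIF2 list, 1 in amino acid sensing, -0.59 for Asns and -1.18 for Asns minus Atf4. With no filter there were 1125 in all mice, 52 in labelled females, and 0 in each of the tRNA synthetase, eIF2 and amino acid sensing lists. With only probes above background on all arrays there were 3917 between slides, from fewer probes tested, with 2 ATF4 targets, 2 synthesis enzymes, 1 in the unfolded protein response and 1 in amino acid sensing. The deposited table gave 173 in labelled males, 460 in labelled females, 35 for the difference between slides, 2 synthesis enzymes, 0 in the eIF2 list, 1 in the unfolded protein response, 1 in amino acid sensing, 0.28 for Atf4, -0.80 for Asns and -1.08 for Asns minus Atf4. Array row as a term gave 216 in labelled females, 2 ATF4 targets and 0 in the eIF2 list. The cause of these shifts was not tested.

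With 1 array left out, counts ran from 1488 to 3864 in all mice, 0 to 9424 in labelled males, 43 to 1919 in labelled females, 1 to 664 for the difference between slides and 7929 to 9863 between slides. The highest of the first 4 ranges came without SI labelled male mouse 4, and the lowest in labelled females without SS labelled female mouse 23. In labelled females the count was also 482 without SS labelled male mouse 2, 517 without mouse 01b and 565 without SI labelled male mouse 5. Lists ran from 1 to 5 ATF4 targets, 0 to 0 transporters, 1 to 3 synthesis enzymes, 0 to 5 tRNA synthetases, 0 to 2 in the eIF2 list, 2 to 4 in the unfolded protein response and 0 to 3 in amino acid sensing. Differences ran from -1.05 to -0.87 for Asns, 0.47 to 0.67 for the first and 0.77 to 0.88 for the second Atf4 probe, and -1.70 to -1.34 for Asns minus Atf4. Nars passed in 16 of 22 alternatives and Nprl3 in 18 of 22. No paired analysis was possible because the groups share no mouse numbers. Signal over background limits Chac1, Trib3, Mtor and Derl3, which passed in 19 of 20 alternatives. Between slides 2762 probes were higher and 6383 lower with labelled females, against 6748 and 4964 with scaling by the 75th percentile of all probes and 5059 and 5043 with quantile normalization.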
